A study of Nicotiana tabacum with 6 samples.

Results

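The auxin transport and response genes of tobacco leaf were compared between MuGDH64, an aphid-resistant line obtained by cobalt gamma irradiation, and its parent GDH64. They were taken from the description of each gene model, as those whose text named auxin, AUX/IAA, ARG7 or GH3 and did not name expansin. Of 69500 gene models, 361 matched, and 141 of these had at least 1 FPKM (sequenced fragments per kilobase of gene model, relative to all mapped fragments of the library) in at least 3 of the 6 libraries. These 141 are the genes described here. They comprised 17 auxin efflux carriers, 39 AUX/IAA proteins, 37 auxin response factors, 25 ARG7-type proteins, 15 GH3 proteins, 6 dormancy/auxin associated proteins and 2 auxin-binding proteins. Each line, MuGDH64 and GDH64, had 3 RNA sequencing libraries from leaf of Nicotiana tabacum. Per the series' design text, each plot gave mixed punches of middle leaves from 3 plants, at 40, 55, 70 and 85 days after transplanting and in more than 1 year. Which of these ages, years or plots a library stands for is not given in the labels. The series title names a mutation of NtCYC. The labels describe MuGDH64 as 1 stable strain from the irradiated material, so that mutation and any other difference of the strain from GDH64 cannot be told apart here.

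Auxin is carried from cell to cell by membrane carriers, among which the PIN proteins and the PIN-LIKES share the auxin efflux carrier domain. In the nucleus auxin brings AUX/IAA repressors to the SCF ubiquitin ligase for destruction, which frees the auxin response factors to act on their target genes. Early targets include the AUX/IAA genes themselves, the SAUR genes (the family of ARG7) and the GH3 genes, whose enzymes join auxin and other acyl acids to amino acids. In growing leaves this system is known for guiding cell expansion, vein formation and the growth of the blade.

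Summed FPKM lay between 634425 and 719776 in the MuGDH64 libraries and between 728572 and 756316 in the GDH64 libraries, and the read depth is unknown. All tested genes together lay lower in MuGDH64, with a median log2 difference of -0.18 on log2(FPKM + 1). Log2 differences below are MuGDH64 minus GDH64 relative to this median, while the limma tests and adjusted p values belong to the values as deposited. Over the 141 auxin genes, Pearson's r across genes was 0.9726 to 0.9834 between libraries of the same line and 0.9379 to 0.9645 between libraries of different lines. Over all tested genes r was 0.9686 to 0.9795 within a line and 0.9474 to 0.9615 between lines. Genes that every leaf uses were abundant in both lines. The 40 photosystem II genes of the PsbP, PsbQ and PsbR families summed to 9278 to 11208 FPKM in MuGDH64 and to 10022 to 10558 FPKM in GDH64. In bulk leaf, fewer cells of a type and less RNA per cell cannot be told apart. Tobacco is an allotetraploid, and how reads that fit near-identical gene copies were assigned is not given, so values of such copies are uncertain.

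Auxin genes were mostly lower in the irradiated line, and 36 of the 141 fell while 2 rose (limma, adjusted p under 0.05). That is 25.5% lower and 1.42% higher, beside 9.74% lower and 2.20% higher among all 32340 tested genes. Of the 141 genes, 106 lay under the median difference of all genes, which by construction 50.0% of tested genes do. The 3 MuGDH64 values lay below all 3 GDH64 values for 75 auxin genes and above them for 5, while the same held for 31.8% and 5.68% of all tested genes. After quantile normalization, which removes the overall shift, 25 auxin genes fell and 4 rose, against 5.19% and 4.42% of all genes. All 25 were among the 36. On that scale the MuGDH64 values lay below all GDH64 values for 47 auxin genes and above them for 9, beside 16.5% and 15.4% of all genes. Fewer fell in each fit without 1 library, with 30, 25 and 22 without MuGDH64 library 1, 2 and 3. Without GDH64 library 1, 2 and 3 the numbers were 21, 23 and 31. Calls among all tested genes also dropped in these fits, from 3863 to between 1794 and 3141. Only 1 rose without MuGDH64 library 1, 2 or 3 or without GDH64 library 1 or 2. Of the 38 changed genes, 20 passed with the same sign in every other setting in which they could be tested, 19 of them lower. Of the 36 that fell, 10 did so by at least 1 log2 unit as deposited, as did 1.22% of all genes. Relative to the median difference of all genes, 6 of the 36 did, and the share of all genes on that scale was not counted. Of the 36, 2 passed the filter on low values through GDH64 alone and so had to be lower, and both are among the 10.

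**Figure D1:**
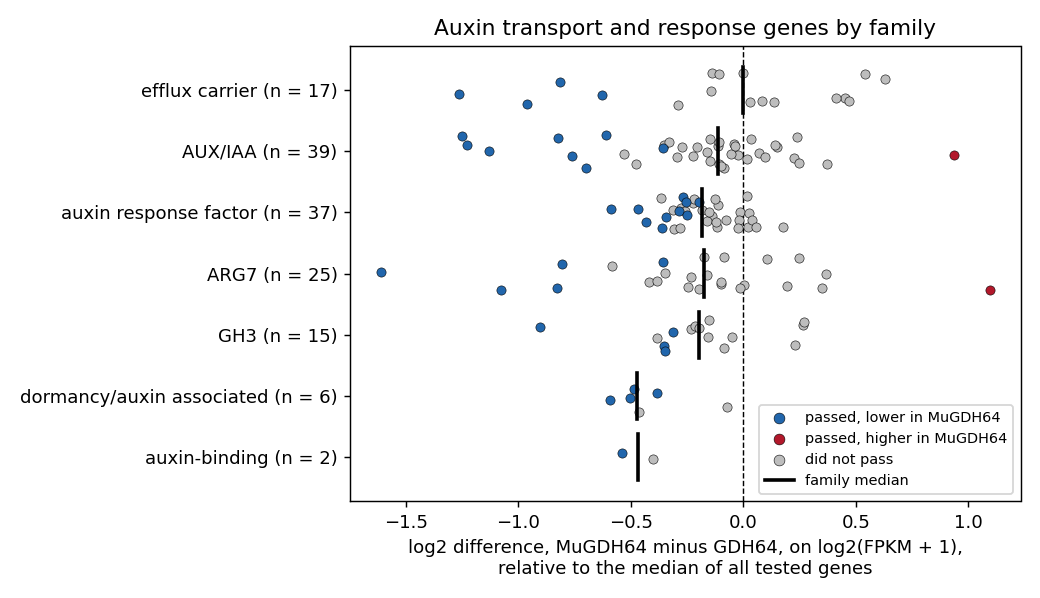
Each point is 1 auxin gene, placed by its log2 difference (MuGDH64 minus GDH64, on log2(FPKM + 1), relative to the median of all tested genes), in rows by family. Blue points passed the limma test as lower in MuGDH64, red points as higher and grey points did not pass, and black bars are family medians. The 36 blue points are spread over all 7 families, and the 2 red points are an AUX/IAA and an ARG7-type gene.

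The summed FPKM of the 141 genes was 2032, 1978 and 1733 in the MuGDH64 libraries and 2627, 2858 and 2555 in the GDH64 libraries. The ratio of the mean sums was 0.714, against 0.921 for all tested genes. In each of the 7 families the highest MuGDH64 sum lay under the lowest GDH64 sum, as did the summed FPKM of all gene models. A lower family sum need not mean that most members fell. Among the 17 efflux carriers 9 lay under the median difference of all genes, and the family's median log2 difference was -0.0037. The dormancy/auxin associated family, with 6 genes, gave the largest family sum in both lines. Family ratios ran from 0.500 for the auxin-binding genes to 0.785 for the ARG7-type genes.

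**Figure D2:**
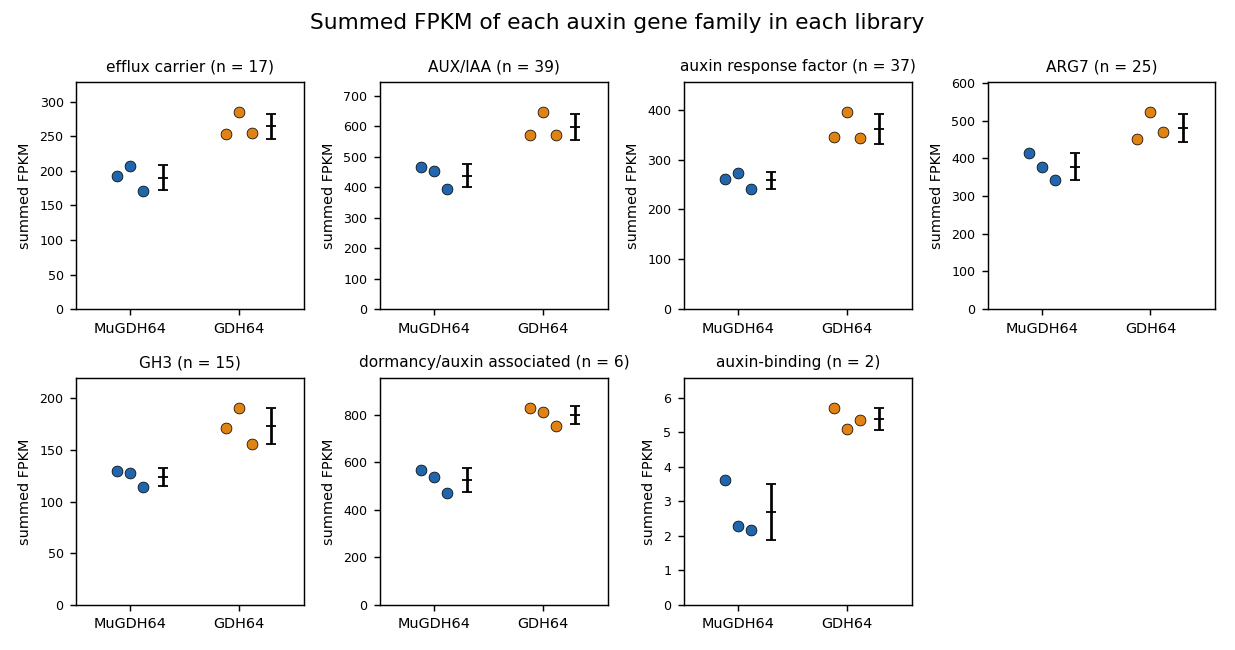
Summed FPKM of each auxin gene family in each library, with MuGDH64 in blue and GDH64 in orange, and the mean ± SD of the 3 libraries beside the points. In every panel the 3 MuGDH64 points lie under the 3 GDH64 points.

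The auxin efflux carriers split into a few that fell strongly and a majority that did not pass. Of 17 carriers 4 fell and none rose as deposited, and after quantile normalization 4 fell and 2 rose. Here and in the families below such counts stand beside 9.74% lower and 2.20% higher among all tested genes (5.19% and 4.42% after quantile normalization). Nitab4.5_0004944g0030 stood at 12.91, 14.90 and 11.76 FPKM in the MuGDH64 libraries, against 35.63, 41.58 and 35.16 FPKM in the GDH64 libraries. Its mean in MuGDH64 was 0.352 of that in GDH64 (log2 difference -1.26, SE 0.12, adjusted p = 0.000316), and the lines were far from overlapping. Nitab4.5_0000495g0070 stood at 27.74, 30.25 and 26.32 FPKM in MuGDH64 and at 58.55, 67.04 and 63.62 FPKM in GDH64 (log2 difference -0.96, SE 0.10, adjusted p = 0.000405). Its libraries formed a tight group in each line, and the groups lay far apart.

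The carrier with the highest mean level behaved otherwise. Nitab4.5_0001629g0060 stood at 59.17, 66.96 and 52.14 FPKM in MuGDH64 and at 62.75, 63.31 and 63.37 FPKM in GDH64, and the lines overlapped (adjusted p = 0.565). Only 4 of the 17 carriers also bear the domain name for plant type carriers, with means over all libraries of 0.835 to 8.49 FPKM. The 13 without that name spanned 1.14 to 61.3 FPKM, so low values were not particular to these 4. Of these 4, Nitab4.5_0000742g0170 fell to 5.92 ± 0.758 FPKM in MuGDH64, against 11.1 ± 1.06 FPKM in GDH64 (adjusted p = 0.00695; values with ± are means and SD of 3 libraries here and below). Nitab4.5_0001832g0090 fell to 1.87 ± 0.231 FPKM in MuGDH64, against 4.72 ± 0.676 FPKM in GDH64 (adjusted p = 0.00487). All 4 carriers that fell passed in every other setting in which they could be tested.

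In 3 carriers every MuGDH64 value lay above every GDH64 value, as in 5.68% of all tested genes. Nitab4.5_0003037g0140 stood at 28.22, 28.71 and 24.28 FPKM in MuGDH64 and at 21.66, 22.76 and 21.95 FPKM in GDH64. It did not pass as deposited (log2 difference 0.45, SE 0.10, adjusted p = 0.105) and passed after quantile normalization (adjusted p = 0.0121; 0.00838 to 0.266 over all other settings). Nitab4.5_0002801g0020, with 1.76, 1.52 and 1.56 FPKM in MuGDH64 and 1.09, 0.67 and 0.98 FPKM in GDH64, did the same (adjusted p = 0.0882 as deposited and 0.0447 after quantile normalization; 0.0419 to 0.201 over all other settings). The third, Nitab4.5_0000316g0050, stood at 1.42, 1.37 and 1.29 FPKM in MuGDH64 and at 1.19, 0.76 and 0.60 FPKM in GDH64 (log2 difference 0.54, SE 0.17), and passed neither as deposited (adjusted p = 0.178) nor in the 13 other settings it could be tested in (0.0663 to 0.340).

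AUX/IAA genes, the repressors of auxin signalling and at the same time its early targets, were lower for 8 of 39 members and higher for 1. After quantile normalization 7 fell and 1 rose. The number that fell was 9, 7 and 5 without MuGDH64 library 1, 2 and 3, and 5, 5 and 6 without GDH64 library 1, 2 and 3. Nitab4.5_0001556g0100 stood at 2.94, 4.28 and 2.58 FPKM in MuGDH64, against 8.77, 11.63 and 8.15 FPKM in GDH64 (log2 difference -1.13, SE 0.18, adjusted p = 0.00425). Nitab4.5_0001044g0060 stood at 19.58, 27.68 and 18.12 FPKM in MuGDH64, against 35.36, 49.01 and 48.70 FPKM in GDH64 (adjusted p = 0.0114). The gap between the lines was wide in both genes, although the 2nd MuGDH64 library was the highest of its line each time.

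Further AUX/IAA genes fell at middling levels. Nitab4.5_0004899g0110 fell to 19.7 ± 3.25 FPKM in MuGDH64, against 38.6 ± 5.96 FPKM in GDH64 (adjusted p = 0.00741). Nitab4.5_0000187g0160 fell to 12.2 ± 2.22 FPKM in MuGDH64, against 23.0 ± 2.53 FPKM in GDH64 (adjusted p = 0.0089). These and the pair before them passed in all 14 other settings. Nitab4.5_0000525g0140 fell to 24.2 ± 5.09 FPKM in MuGDH64, against 42.2 ± 5.97 FPKM in GDH64 (adjusted p = 0.019). It missed the threshold with no filter on low values (0.0529) and without GDH64 library 2 (0.0604), with 0.00971 to 0.0604 over all other settings. Nitab4.5_0004203g0040 fell to 33.9 ± 4.88 FPKM in MuGDH64, against 49.2 ± 3.12 FPKM in GDH64 (adjusted p = 0.0229). Over the 14 other settings its adjusted p spanned 0.0141 to 0.108, with 9 under the threshold. The test missed without MuGDH64 library 2 (0.0766) or 3 (0.0689) and without GDH64 library 1 (0.0721) or 3 (0.0567).

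The largest falls by ratio in the AUX/IAA family were in genes with low values. Nitab4.5_0000209g0290 stood at 0.93, 0.72 and 0.15 FPKM in MuGDH64, against 4.20, 4.57 and 1.57 FPKM in GDH64 (log2 difference -1.25, SE 0.31, adjusted p = 0.023). It reached 1 FPKM in GDH64 alone, so it had to be lower in MuGDH64 to be counted among the 141. It missed with no filter on low values (0.0668) and without MuGDH64 library 3 (0.0796), with 0.0107 to 0.0796 over all other settings. Nitab4.5_0000028g0050 stood at 2.04, 1.26 and 1.91 FPKM in MuGDH64, against 7.44, 9.72 and 3.09 FPKM in GDH64 (adjusted p = 0.0255). The GDH64 libraries of this gene were scattered, and it missed the threshold after quantile normalization (0.0543; 0.00276 to 0.0747 over all other settings). It also missed without MuGDH64 library 2 (0.068) or 3 (0.0721) and without GDH64 library 1 (0.0698) or 2 (0.0707).

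Nitab4.5_0008524g0010 was the AUX/IAA gene that rose. It stood at 4.43, 3.44 and 3.40 FPKM in MuGDH64, against 1.55, 1.25 and 2.81 FPKM in GDH64 (log2 difference 0.94, SE 0.21, adjusted p = 0.0478). The lines did not overlap. Over 13 other settings its adjusted p spanned 0.0149 to 0.127, with 5 under the threshold. It missed without any 1 of the 5 libraries other than GDH64 library 3 (0.0853 to 0.127). With the library number as a block its adjusted p was 0.0641. The highest AUX/IAA genes did not pass. Nitab4.5_0000377g0200 had 56.0 ± 6.01 FPKM in MuGDH64 and 60.5 ± 7.56 FPKM in GDH64 (adjusted p = 0.576), and Nitab4.5_0006977g0010 had 48.7 ± 4.85 FPKM in MuGDH64 and 56.7 ± 0.693 FPKM in GDH64 (adjusted p = 0.164).

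Auxin response factors, the DNA-binding proteins that AUX/IAA proteins hold in check, were lower by small amounts in many members at once. Of 37 members 10 fell and none rose, beside 9.74% and 2.20% of all tested genes. In 25 every MuGDH64 value lay below every GDH64 value, as in 31.8% of all tested genes. Their log2 differences spanned only -0.59 to 0.18. After quantile normalization 3 fell and none rose, and 18 lay below. Of all tested genes 5.19% fell and 16.5% lay below on that scale. Counts of genes that fell were 4 without MuGDH64 library 1, 3 without MuGDH64 library 2 or 3, 3 without GDH64 library 1 or 2 and 6 without GDH64 library 3.

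Most response factors, 28 of the 37, bear a dimerisation domain, the part through which they pair with each other and with AUX/IAA proteins. Of 28 such members 24 had all MuGDH64 values below all GDH64 values as deposited and 17 after quantile normalization, with none above in either. Of the 9 members described without that domain, 1 lay below as deposited and 1 after quantile normalization. Among all tested genes 31.8% lay below as deposited and 16.5% after quantile normalization. By the limma test 9 of the 28 and 1 of the 9 fell as deposited, and 2 and 1 after quantile normalization. The median log2 difference was -0.24 with the domain and -0.02 without it, and the median level was 5.13 and 2.88 FPKM. The difference between these sets of genes was not tested.

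The response factors with the clearest falls were of middling level. Nitab4.5_0000798g0140 stood at 9.02, 8.65 and 8.68 FPKM in MuGDH64, against 16.69, 15.85 and 14.45 FPKM in GDH64 (log2 difference -0.59, SE 0.10, adjusted p = 0.00369). Nitab4.5_0000663g0220 stood at 21.79, 23.67 and 20.78 FPKM in MuGDH64, against 34.11, 34.85 and 33.67 FPKM in GDH64 (adjusted p = 0.00606). The 3 libraries of a line lay close together in both genes and the lines were well apart. Nitab4.5_0006740g0010, described without a dimerisation domain, fell to 19.2 ± 1.45 FPKM in MuGDH64, against 30.7 ± 3.48 FPKM in GDH64 (adjusted p = 0.0108). These 3 genes passed in all 14 other settings.

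The most abundant response factor, Nitab4.5_0008892g0020, stood at 49.40, 53.74 and 47.11 FPKM in MuGDH64, against 64.94, 80.79 and 63.46 FPKM in GDH64 (adjusted p = 0.0346). It and the other 6 that fell, Nitab4.5_0000999g0120, Nitab4.5_0000650g0030, Nitab4.5_0009686g0010, Nitab4.5_0000304g0070, Nitab4.5_0000235g0020 and Nitab4.5_0003119g0050, had MuGDH64 means of 0.630 to 0.755 of the GDH64 means. None of these 7 passed after quantile normalization or median-centring, nor without MuGDH64 library 1, 2 or 3 or GDH64 library 1 or 2, and 4 of them also missed without GDH64 library 3 (0.0502 to 0.0724). Their highest adjusted p over all other settings was 0.0955 to 0.198, with that of Nitab4.5_0000304g0070 the highest.

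ARG7-type genes belong to the SAUR family of small proteins that auxin induces early, several of which promote cell expansion in Arabidopsis. They held the widest range of change, with 5 of 25 lower and 1 higher, and 4 lower and 1 higher after quantile normalization. Nitab4.5_0000747g0050 stood at 32.14, 35.05 and 30.95 FPKM in MuGDH64, against 77.96, 88.45 and 72.45 FPKM in GDH64 (log2 difference -1.08, SE 0.10, adjusted p = 0.000323). Nitab4.5_0000496g0160 stood at 7.98, 8.04 and 7.30 FPKM in MuGDH64, against 16.81, 15.12 and 17.09 FPKM in GDH64 (adjusted p = 0.00126). In both genes the lowest GDH64 value was well above the highest MuGDH64 value. Nitab4.5_0010792g0020 stood at 1.96, 4.25 and 1.10 FPKM in MuGDH64, against 7.83, 11.99 and 10.74 FPKM in GDH64 (log2 difference -1.61, SE 0.30, adjusted p = 0.00919). It had the largest fall of the 141 genes on log2(FPKM + 1). By the ratio of means, 0.239 for this gene, the low genes Nitab4.5_0000209g0290 (0.174) and Nitab4.5_0002632g0050 (0.201) fell further.

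The opposite change was seen in Nitab4.5_0001993g0060, which stood at 33.70, 42.10 and 34.13 FPKM in MuGDH64, against 16.48, 20.47 and 19.65 FPKM in GDH64. Its mean in MuGDH64 was 1.94 times that in GDH64 (log2 difference 1.10, SE 0.13, adjusted p = 0.00386), and it passed as higher in all 14 other settings. Nitab4.5_0001650g0130 fell to 24.0 ± 2.60 FPKM in MuGDH64, against 35.0 ± 1.40 FPKM in GDH64 (adjusted p = 0.0166). It missed after quantile normalization (0.0694; 0.0103 to 0.116 over all other settings) and without MuGDH64 library 2 (0.0592). Nitab4.5_0002632g0050 reached 1 FPKM in GDH64 alone. It stood at 0.42, 0.35 and 0.31 FPKM in MuGDH64, against 1.32, 2.67 and 1.38 FPKM in GDH64 (adjusted p = 0.0179), and missed without MuGDH64 library 3 (0.0591; 0.0159 to 0.0591 over all other settings).

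The most abundant ARG7-type gene, Nitab4.5_0000319g0270, stood at 146.9, 113.2 and 107.9 FPKM in MuGDH64 and at 97.81, 117.5 and 150.7 FPKM in GDH64. Its lines overlapped widely (adjusted p = 0.953). Replicate scatter was large in many other members, and in 17 of the 25 the lines overlapped. Of the 25, 7 lay wholly below in MuGDH64 and 1 wholly above, beside 31.8% and 5.68% of all tested genes. Nitab4.5_0006348g0020 had 43.5 ± 1.97 FPKM in MuGDH64 and 58.1 ± 15.6 FPKM in GDH64 (adjusted p = 0.188), and passed as lower only without GDH64 library 3 (0.0226; 0.0226 to 0.532 over all other settings).

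**Figure D3:**
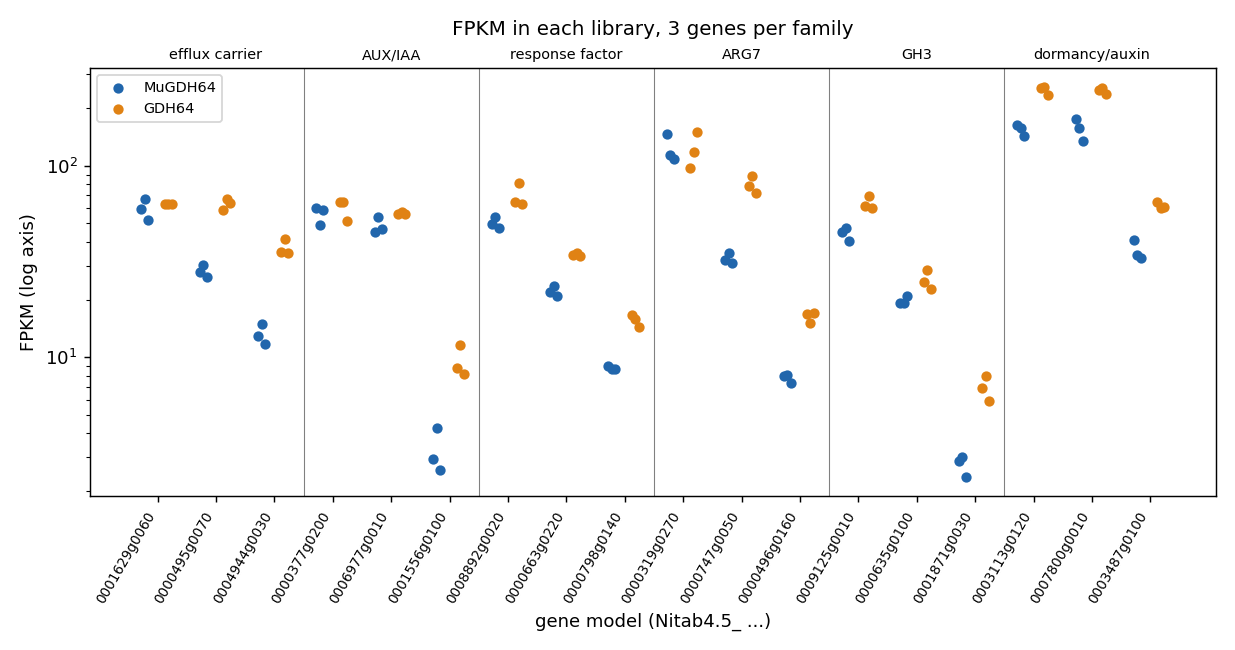
FPKM in each library (log axis) of 3 genes from each of the 6 larger families, MuGDH64 in blue to the left of GDH64 in orange. For each family the first 2 genes have the highest mean level and the third has the smallest adjusted p among the rest. The highest efflux carrier and ARG7-type gene overlap between the lines, while all 3 dormancy/auxin associated genes shown lie lower in MuGDH64.

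GH3 genes, whose enzymes join auxin or other acyl acids to amino acids, had 4 of 15 members lower and none higher. The descriptions do not say which acid a member uses. After quantile normalization 3 fell and none rose. The number was 2 without MuGDH64 library 2 or 3 or without GDH64 library 1 or 2, 3 without MuGDH64 library 1 and 4 without GDH64 library 3. Nitab4.5_0001871g0030 stood at 2.85, 2.99 and 2.37 FPKM in MuGDH64, against 6.87, 8.01 and 5.90 FPKM in GDH64 (log2 difference -0.90, SE 0.14, adjusted p = 0.00348). The most abundant member, Nitab4.5_0009125g0010, stood at 44.84, 47.10 and 40.21 FPKM in MuGDH64, against 61.80, 69.52 and 60.50 FPKM in GDH64 (adjusted p = 0.014). Neither gene overlapped between the lines, and both passed in all 14 other settings.

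The remaining pair of GH3 genes that fell did so by less. Nitab4.5_0000305g0060 fell to 9.55 ± 0.918 FPKM in MuGDH64, against 14.2 ± 1.51 FPKM in GDH64 (adjusted p = 0.0276; 0.0174 to 0.0943 over all other settings). It missed without MuGDH64 library 2 (0.0819) or 3 (0.0831) and without GDH64 library 1 (0.0943) or 2 (0.0826). Nitab4.5_0021741g0010 fell to 11.8 ± 1.70 FPKM in MuGDH64, against 16.9 ± 1.24 FPKM in GDH64 (adjusted p = 0.0412). It missed in each of the 6 fits without 1 library (0.0515 to 0.117) and after quantile normalization (0.0565; 0.027 to 0.117 over all other settings). Nitab4.5_0000635g0100 had 19.8 ± 0.947 FPKM in MuGDH64 and 25.2 ± 2.86 FPKM in GDH64 (adjusted p = 0.0834), and Nitab4.5_0002262g0110 had 13.3 ± 1.58 FPKM in MuGDH64 and 18.0 ± 3.07 FPKM in GDH64 (adjusted p = 0.0923).

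The dormancy/auxin associated family, named after plant genes that are abundant in dormant buds and are repressed by auxin, had the highest levels of the 7 families, and its log2 differences spanned -0.59 to -0.07. Of 6 members 4 fell and none rose, both as deposited and after quantile normalization. Nitab4.5_0003113g0120 stood at 163.5, 157.6 and 143.3 FPKM in MuGDH64, against 254.2, 257.7 and 233.6 FPKM in GDH64 (log2 difference -0.50, SE 0.09, adjusted p = 0.00334). Nitab4.5_0007800g0010 stood at 174.8, 158.3 and 135.1 FPKM in MuGDH64, against 247.7, 254.2 and 236.2 FPKM in GDH64 (adjusted p = 0.00756). These were the most abundant of the 141 genes, and neither overlapped between the lines.

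Nitab4.5_0003487g0100 fell to 36.0 ± 4.10 FPKM in MuGDH64, against 62.0 ± 2.37 FPKM in GDH64 (log2 difference -0.59, adjusted p = 0.00369). Nitab4.5_0005982g0020 fell to 98.8 ± 8.21 FPKM in MuGDH64, against 146 ± 12.9 FPKM in GDH64 (adjusted p = 0.012), and missed the threshold without GDH64 library 1 (0.0509; 0.00681 to 0.0509 over all other settings). In Nitab4.5_0000041g0020 the lines overlapped, with 73.6 ± 8.18 FPKM in MuGDH64 and 87.5 ± 6.79 FPKM in GDH64 (adjusted p = 0.16). The lowest member, Nitab4.5_0000516g0130, had 4.89 ± 1.54 FPKM in MuGDH64 and 7.98 ± 1.23 FPKM in GDH64 (adjusted p = 0.0773).

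Auxin-binding proteins, small cupin-fold proteins that bind auxin, were both low. Nitab4.5_0002093g0100 stood at 2.31, 1.34 and 1.22 FPKM in MuGDH64, against 2.87, 3.64 and 3.25 FPKM in GDH64 (log2 difference -0.54, SE 0.18, adjusted p = 0.037). Its adjusted p spanned 0.0203 to 0.117 over 13 other settings, with 3 under the threshold. It missed after quantile normalization (0.082) and without MuGDH64 library 2 (0.101) or 3 (0.117) or GDH64 library 1 (0.0661), 2 (0.105) or 3 (0.0723). Nitab4.5_0010603g0020 stood at 1.31, 0.94 and 0.96 FPKM in MuGDH64 and at 2.84, 1.44 and 2.11 FPKM in GDH64 (adjusted p = 0.0834), and passed without GDH64 library 2 (0.0494; 0.0494 to 0.287 over all other settings).

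**Figure D4:**
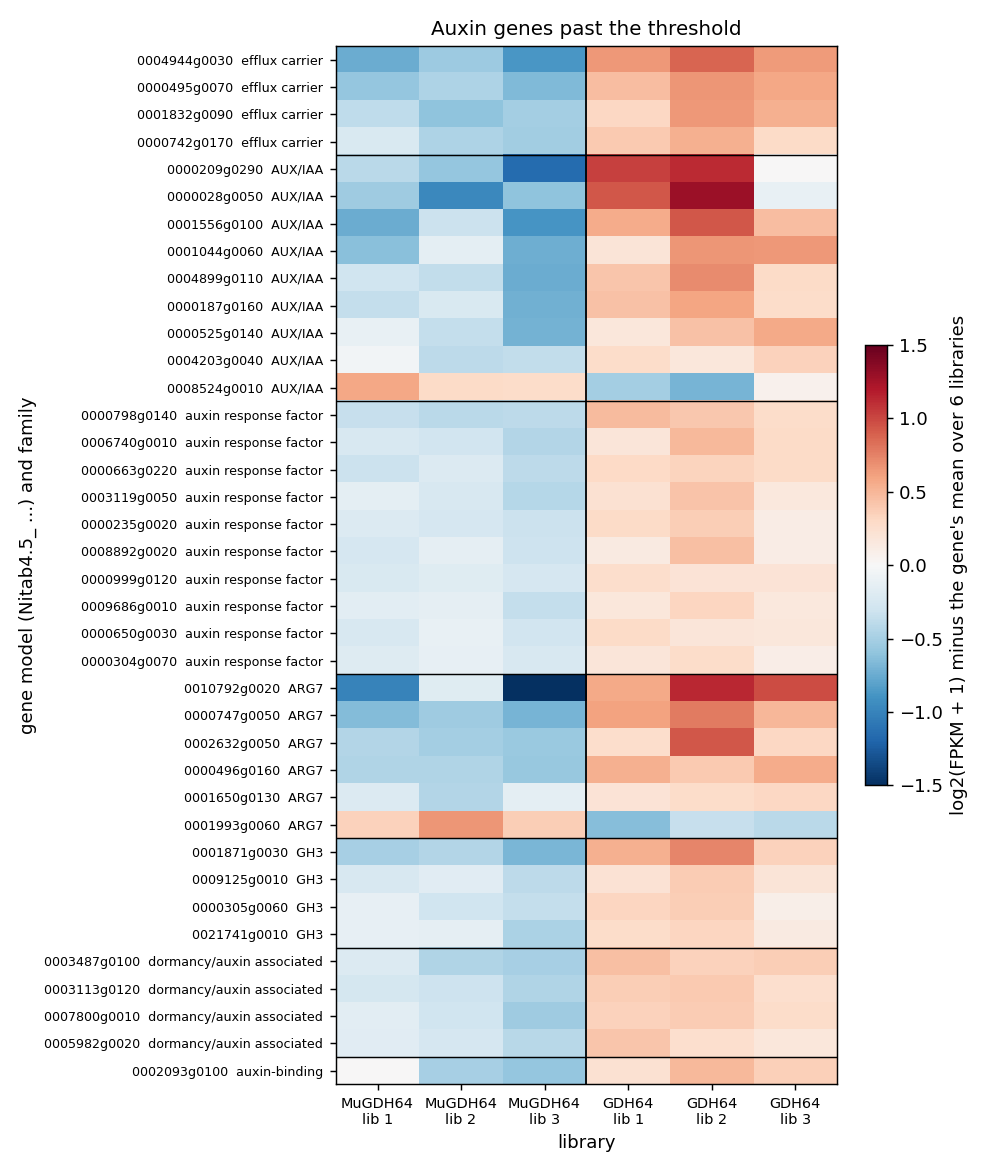
The 38 auxin genes past the threshold, 1 row per gene in order of family, in the 3 MuGDH64 and the 3 GDH64 libraries. Colour is log2(FPKM + 1) minus the mean of the gene over the 6 libraries. The 36 genes that fell are mostly blue in MuGDH64 and red in GDH64 and the 2 that rose mostly the reverse. In the AUX/IAA gene Nitab4.5_0000028g0050 GDH64 library 3 is pale blue, below the gene's mean.

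Falls were counted among abundant and low genes. Among the 75 auxin genes with a mean of at least 5 FPKM over the 6 libraries 28 fell. Among the 66 with a lower mean 8 fell, and 2 of these 8 passed the filter through GDH64 alone. Of all tested genes at any level 9.74% fell, and their share at each of these levels was not counted. The pseudocount of 1 understates the change of the low genes. The filter on low values was passed by 3 genes through GDH64 alone and by none through MuGDH64 alone. Just inside the filter, 6 members reached 1 FPKM in exactly 3 libraries, among them the efflux carrier Nitab4.5_0006531g0010 with a highest value of 1.07 FPKM. Its third-highest value was 1.01 FPKM. Just outside it, 12 matching gene models reached 1 FPKM in 2 libraries, and the nearest, the response factors Nitab4.5_0000106g0200 and Nitab4.5_0000754g0240, had a third-highest value of 0.97 FPKM. Of the 220 matching models that did not pass the filter, 147 were ARG7-type and 25 efflux carriers, and 104 were listed at 0 in all 6 libraries.

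Gene families linked to the auxin pathway or to growth were found by domain names outside the 141. A domain name does not say that a given gene acts in that pathway. Counts of these families stand beside the same 9.74% lower and 2.20% higher among all tested genes (5.19% and 4.42% after quantile normalization). LOB domain proteins, a family with auxin-induced regulators of organ boundaries and lateral roots in Arabidopsis, had 5 of 16 tested members lower and none higher, also after quantile normalization. Among them Nitab4.5_0006069g0010 fell to 2.07 ± 0.0624 FPKM in MuGDH64, against 7.57 ± 1.10 FPKM in GDH64 (adjusted p = 0.00055). NPH3 domain proteins, a family with members that act in phototropism and auxin-dependent organ formation in Arabidopsis, had 13 of 42 lower and 1 higher, against 8 and 1 after quantile normalization. Their median log2 difference was -0.22, next to -0.16 for the 141 auxin genes.

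Families of auxin supply gave these counts. Flavin monooxygenases, the family of the auxin-forming YUCCA enzymes, had 1 of 7 tested members higher and none lower, and alliinase-type aminotransferases, the family of TAA1, had 1 of 3 higher and none lower. The flavin monooxygenase was Nitab4.5_0001557g0030, at 7.24 ± 1.25 FPKM in MuGDH64 against 3.64 ± 0.696 FPKM in GDH64 (adjusted p = 0.0143). The domain names do not say which of these enzymes form auxin. Of 25 peptidase M20 amidohydrolases, the family that frees auxin from amino acid conjugates in Arabidopsis, none passed (limma, 1 with an unadjusted p under 0.05). Amino acid permeases, the family of the AUX1 influx carriers, had 8 of 66 lower and 4 higher, against 6 and 5 after quantile normalization.

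The words SKP1 and cullin, for the frame of the SCF ligase, caught 78 tested genes of several kinds. Of 15 SKP1 genes 1 fell and of 18 cullin genes 1 fell. Of the others, 4 of 27 Exo70 exocyst genes, 2 of 10 genes for defective-in-cullin neddylation proteins and none of 8 further genes fell, and none of the 78 rose. The SKP1 gene that fell is the abundant Nitab4.5_0005236g0040, at 386 ± 24.3 FPKM in MuGDH64 and 557 ± 36.2 FPKM in GDH64 (adjusted p = 0.00921). B3 domain proteins outside the response factors had 5 of 54 lower and 1 higher, against 3 and 1 after quantile normalization. None of 7 BRX genes passed (limma, 2 with an unadjusted p under 0.05). Expansins had 1 of 22 lower and 1 higher, against 1 and 3 after quantile normalization. Xyloglucan transglycosylases, which remodel the wall during growth, had 7 of 31 lower and 6 higher, against 5 lower and 8 higher after quantile normalization, with a median log2 difference of 0.27.

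Marker genes of other cells and of leaf mesophyll were summed in each library. Their counts stand beside 9.74% lower and 2.20% higher among all tested genes (5.19% and 4.42% after quantile normalization). The 217 cyclin and kinesin models summed to 298 to 337 FPKM in MuGDH64 and to 380 to 462 FPKM in GDH64, 16 of them were listed at 0 in all 6 libraries, and the sums of the lines did not overlap. Of 85 tested, 11 fell and none rose (5 and none after quantile normalization), which is 12.9% lower beside 9.74% of all tested genes. The part of dividing cells in the auxin result was not tested. The word pattern for pollen allergens also matches a domain name of expansins, so expansins are among its 165 models. How many was not counted, and the sums do not stand for pollen alone. These models summed to 836 to 905 FPKM in MuGDH64 and to 934 to 984 FPKM in GDH64, with 78 at 0 throughout. Of 46 tested 8 fell while 2 rose (6 and 4 after quantile normalization). The word pattern for seed proteins caught 205 lipid transfer proteins among 249 models and summed to 3246 to 3823 FPKM in MuGDH64 and to 3494 to 4598 FPKM in GDH64, with 13 of 63 tested lower and 5 higher (9 and 6 after quantile normalization). No description named the Casparian strip of roots. Rubisco small chain genes summed to 7448 to 7618 FPKM in MuGDH64 and to 6579 to 7665 FPKM in GDH64, and chlorophyll a-b binding genes to 6615 to 7392 FPKM in MuGDH64 and to 7351 to 8055 FPKM in GDH64. Of 63 tested chlorophyll a-b binding genes 14 fell, which is 22.2%, and 2 rose (7 and 3 after quantile normalization). Of 8 Rubisco small chain genes none passed as deposited (limma, 3 with an unadjusted p under 0.05) and 2 rose after quantile normalization. For the photosystem I genes PsaD and PsaE the sums were 3314 to 3607 FPKM in MuGDH64 and 3178 to 3542 FPKM in GDH64.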

How the data were processed

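Leaf RNA was sequenced as paired ends after TruSeq preparation, per the labels' protocols. The submitters' processing notes name TopHat2 and Cufflinks without versions. No unit, genome build or annotation is stated in the labels or header. The deposited values were taken as FPKM, inferred from their decimals, their unequal sums and Cufflinks. Read depth is therefore unknown, and a few very abundant transcripts can lower all other FPKM values of a library. The 2 columns of the authors' line means were not used. No gene model matched the RefSeq table, so positions and sequences were not used here.

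limma 3.58.1 (R 4.3.3, mean-variance trend) was run on log2(FPKM + 1) for 32340 gene models reaching 1 FPKM in 3 or more libraries. The design had 1 term, line. Two-sided p values received Benjamini-Hochberg adjustment across these models (threshold 0.05). The code was tested on simulated data. Labels do not say that libraries came from separate plots, so p values measure only the spread between these libraries, which may be technical. Members and lists were chosen with earlier results of these data known. Named members are those past the threshold and, per family, the 3 with the highest mean and the 3 with the smallest adjusted p. Other named genes were chosen after their values were seen. Alternatives were quantile normalization, equal sums, median-centring, a pseudocount of 0.1, no filter, a filter of 5 FPKM, no trend, a replicate block and leaving out each library. Summaries and figures used Python 3.11.15 with numpy 2.4.6, pandas 2.3.3 and matplotlib 3.10.9.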

Additional observations from a re-analysis of the deposited data

How the results depend on the processing

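Of all tested genes 3863 passed as deposited, 2280 passed with no filter on low values, and between 1794 and 3141 passed when 1 library was left out. Of the auxin genes, 36 fell and 2 rose. After median-centring 23 fell and 4 rose, and after quantile normalization 25 fell and 4 rose. The number that fell was 21 to 31 with 1 library left out, and the number that rose was 1 to 2. Only 1 rose with a pseudocount of 0.1, with no filter, with a filter of 5 FPKM and with the replicate block. Deviations of same-numbered libraries from their line means correlated at 0.0148, 0.0131 and 0.0512 over all tested genes, against -0.0459 to 0.0281 between different numbers. Not every library correlated best with its own number. These correlations cannot show a shift of a whole library, so they do not settle whether the numbers pair the libraries. With the replicate block 37 auxin genes fell and 1 rose, and 3991 of all tested genes passed. For the 46 named auxin genes 630 differences were recomputed, of which 502 kept direction and side of the threshold, 122 lost the call, 2 gained it and 4 changed sign. Of these sign changes 3 were in Nitab4.5_0000377g0200, at -0.0008 after quantile normalization, -0.0125 without MuGDH64 library 3 and -0.0114 without GDH64 library 3, with 0.1754 the highest of its values with 1 library left out. The fourth was in Nitab4.5_0006977g0010, at 0.0386 without MuGDH64 library 1 and down to -0.1045 with another library left out. Both are AUX/IAA genes that did not pass in any setting. The cause of these changes was not tested. With depth unknown, counting error could not be set apart from other spread for the 66 auxin genes with a mean under 5 FPKM.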

Other observations

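Among the 141 auxin genes 9 pairs share a scaffold number in their identifiers, and 3 pairs are given here, chosen after their values were seen. Log2 differences are relative to the median of all tested genes. The ARG7-type neighbours Nitab4.5_0010792g0010 and Nitab4.5_0010792g0020 had log2 differences of 0.11 and -1.61, and only the second passed. Values of the first were low and scattered, at 1.35, 0.88 and 0.31 FPKM in MuGDH64 and 1.56, 0 and 1.61 FPKM in GDH64 (SE 0.38). The AUX/IAA genes Nitab4.5_0004203g0040 and Nitab4.5_0004203g0060 had log2 differences of -0.36 and 0.23, and only the first passed. The ARG7-type genes Nitab4.5_0001650g0120 and Nitab4.5_0001650g0130 had 0.00389 and -0.36, and only the second passed. No difference within a pair was tested.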
